A study of Saccharomyces cerevisiae with 36 samples.

Results

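The change of the transcriptome of IDRm yeast cells after 10 min at 40 °C was described gene by gene from 4 total RNA libraries, 2 of cells held at 40 °C and 2 of cells kept at 30 °C, out of 36 libraries of the series. The members are all genes with enough counts to be tested, 6090 of the 6697 genes in the count table. IDRm cells are Saccharomyces cerevisiae of the W303 Ade+ background in which the RNA helicase Ded1 carries an mCherry tag and the allele named IDRm. WT cells, used here only to ask where the response of IDRm differs, have the same background and Ded1 with the tag alone, so the controls too carry tagged Ded1. Liquid cultures, 2 for each strain, were grown at 30 °C and each was divided over 30, 40 and 42 °C for 10 min, then filtered and frozen. Total RNA came from a hot acid phenol extraction and was then depleted of ribosomal RNA. The labels do not spell out the changes in the IDRm allele, and name no second clone of it. Libraries taken at 40 and 30 °C can share a culture, which the main test does not use. The p-values below rest on the spread between the 2 libraries of a group, pooled over the 6 groups of total RNA.

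When yeast is warmed abruptly, the factor Hsf1 raises genes of chaperones, the proteins that fold, hold or disaggregate other proteins. Msn2 and Msn4 raise a broader set of stress and carbohydrate genes that protein kinase A holds down in growing cells. At the same time the genes for building ribosomes, which take much of the transcription of a growing cell, are turned down. Ded1 is a helicase that helps the small ribosomal subunit scan the start of an mRNA, and it gathers in granules when cells are heated.

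The 4 IDRm libraries held 9743726 to 10894024 counts. Replicates correlated at 0.995 in both groups (log2 levels across genes), yet differed beyond sampling noise, with a chi-square per degree of freedom of 8.81 at 40 °C and 10.1 at 30 °C. The 10 most abundant genes took 16.2 and 15.6% of the counts at 40 °C, against 9.89 and 9.69% at 30 °C. The libraries that stood apart most were those of WT at 30 °C, with a chi-square of 38.8 and a correlation of 0.989, and counts that rest on them are given also without each. Those of WT at 42 °C, which enter the pooled spread, came next with 21.5 and 0.992. DED1 itself had 976 and 896 CPM at 40 °C, against 985 and 1174 CPM at 30 °C, and this difference was not called (log2 -0.21 ± 0.17). In WT it had 1441 and 1556 CPM at 40 °C, against 1993 and 1449 CPM at 30 °C. The sequence of the IDRm allele is not given in the sources used here, so reads from an altered stretch may be missing from the IDRm values. Levels are given in CPM, counts scaled to one common total with TMM-adjusted library sizes. A fold change therefore compares a transcript with the rest of its library, and in a culture less RNA in each cell cannot be told apart from fewer cells holding it.

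Heat changed most of the measured transcriptome. Of 6090 genes 4288 were called, or 70.4%, by the edgeR quasi-likelihood test at a Benjamini-Hochberg adjusted p under 0.05. Called higher at 40 °C were 2303 genes (37.8%) and called lower 1985 (32.6%). Both directions differed in reach: of 2152 genes called with at least a 2-fold change (35.3%), 1260 (20.7%) were higher and 892 (14.6%) lower, and 218 (3.58%) were higher and 83 (1.36%) lower by at least 8-fold. By at least 32-fold 59 (0.969%) were higher and 1 (0.0164%), NSR1, lower. Over all genes the median log2 change was 0.08 and the median size 0.70, against a median standard error of 0.15. For 5355 of the 6090 genes both 40 °C libraries lay above, or both lay below, both 30 °C libraries. Below, ± gives the standard error of a log2 fold change, and rose, fell and called refer to the same test. This error is the size of the change divided by the square root of the test's F statistic. It is approximate and can be too small for large changes on few counts. Genes set in brackets beside a list count of 5 or fewer were named after their values were seen.

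The highest changes belonged to small stress proteins. HSP30, which encodes a plasma membrane protein known to restrain the proton pump Pma1 (YCR021C, chromosome III, 156109 to 157107 in R64), had 7117 and 7477 CPM at 40 °C, against 9.18 and 3.60 CPM at 30 °C. HSP26, a small heat shock protein that holds unfolded proteins (YBR072W, chromosome II, 382030 to 382674), had 8019 and 8167 CPM at 40 °C, against 18.2 and 14.8 CPM at 30 °C. Both lay in each 40 °C library far above its level at 30 °C, with log2 changes of 10.17 ± 0.51 and 8.94 ± 0.24; without replicate 1 at 30 °C HSP30 changed by 10.94. HSP12, whose product stabilises membranes, had 2849.6 and 3018 CPM at 40 °C, against 6.84 and 5.72 CPM at 30 °C, and SPG4 133 and 139 CPM at 40 °C, against 0.488 and 0.369 CPM at 30 °C. The groups were far apart in each case. SPG4 rested on fewer than 10 counts a library at 30 °C, which limits how exactly its change of 8.28 ± 0.27 is known. After them followed TMA10 (8.06 ± 0.27), which encodes a ribosome-associated protein, the protein sorting factor BTN2 (7.96 ± 0.43), HSP42 (7.81 ± 0.36), SOL4 of the pentose phosphate pathway (7.55 ± 0.19), the Hsp70 gene SSA4 (7.46 ± 0.27), ROQ1, which reprograms a ubiquitin ligase (7.35 ± 0.18), EGO4 (7.22 ± 0.44) and the hexose transporter HXT5 (7.18 ± 0.16).

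**Figure D1:**
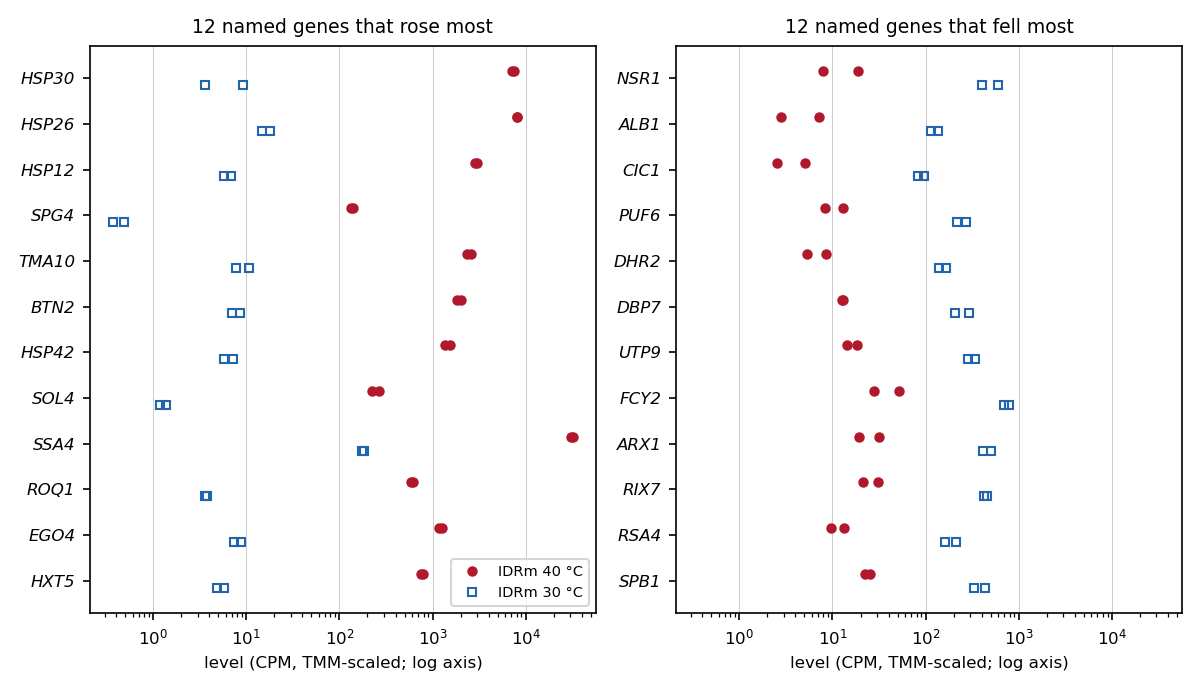
Levels in CPM (log axis) of the 12 named genes that rose most and the 12 that fell most, 1 symbol a library, with filled circles for IDRm at 40 °C and open squares for IDRm at 30 °C. The 2 groups do not overlap for any of the 24 genes, which were chosen for large called changes, nor for 5355 of all 6090 tested genes. The replicates of NSR1, ALB1 and CIC1 lie apart at 40 °C.

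Aggregate handling changed as a block. The list of the disaggregase, the small heat shock proteins and the sorting factors held 5 genes, all of which rose, with a median of 7.81 against 0.08 for all genes. HSP104, which encodes the hexameric machine that pulls proteins out of aggregates, had 20599 and 19749 CPM at 40 °C, against 598 and 551 CPM at 30 °C. HSP42, which gathers misfolded proteins into foci, had 1547 and 1358 CPM at 40 °C, against 7.13 and 5.81 CPM at 30 °C. BTN2 had 2024 and 1845 CPM at 40 °C, against 8.50 and 7.01 CPM at 30 °C, and its relative CUR1 501 and 538 CPM at 40 °C, against 14.5 and 17.4 CPM at 30 °C. In all 4 the libraries of the groups were well separated, with changes of 5.13 ± 0.16, 7.81 ± 0.36, 7.96 ± 0.43 and 5.02 ± 0.20.

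Within the cytosolic Hsp70 family the stress forms and the ribosome-bound forms moved apart. Of 9 genes tested 6 rose (66.7%) and 3 fell (33.3%), against 37.8% and 32.6% of all genes. SSA4, the heat-inducible Hsp70, had 32149 and 30813 CPM at 40 °C, against 182 and 176 CPM at 30 °C, the largest gain in CPM of all genes. SSA3 had 3352 and 3461 CPM at 40 °C, against 71.0 and 69.1 CPM at 30 °C. SSA1 and SSA2, the forms made in growing cells, rose less, by 3.29 ± 0.15 and 2.04 ± 0.13, and the Hsp110 genes SSE1 and SSE2, whose products reload Hsp70, by 1.67 ± 0.12 and 4.13 ± 0.16. SSB1, SSB2 and SSZ1, which act on chains leaving the ribosome, fell. SSB1 had 495 and 571 CPM at 40 °C, against 2096 and 1939 CPM at 30 °C (log2 -1.92 ± 0.14), SSB2 changed by -1.72 ± 0.13 and SSZ1 by -0.72 ± 0.11. SSA1 and SSA2, like SSB1 and SSB2, are close in sequence, so reads may be divided between them.

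Of 13 J-proteins and exchange factors, the partners of Hsp70, 7 rose and 5 fell (XDJ1, JJJ1, JJJ3, DJP1 and ZUO1). These are 53.8% and 38.5%, against 37.8% and 32.6% of all genes, so the share that fell was near that of all genes. The J-protein SIS1 had 8011 and 7784 CPM at 40 °C, against 239 and 225 CPM at 30 °C, and the exchange factor FES1 4955 and 4259 CPM at 40 °C, against 94.6 and 99.1 CPM at 30 °C. Both were higher in each 40 °C library. APJ1, a J-protein of nuclear quality control, rose by 5.29 ± 0.17 and YDJ1, the general cytosolic J-protein, by 2.30 ± 0.12. Of the 5 that fell, ZUO1 and JJJ1, whose products sit on the ribosome, changed by -1.58 ± 0.13 and -1.70 ± 0.33.

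Hsp90 and its co-chaperones mostly rose, 8 of 12, with 2 lower (PPT1 and SGT1, of which SGT1 was not called without replicate 2 of either temperature). The inducible Hsp90 gene HSP82 had 29184 and 29780.3 CPM at 40 °C, against 804 and 912 CPM at 30 °C. Its near-identical partner HSC82, which is high at all times, had 15063 and 14954 CPM at 40 °C, against 4390.5 and 4782 CPM at 30 °C. HSP82 thus stood below HSC82 at 30 °C and above it at 40 °C in every library, with changes of 5.10 ± 0.17 and 1.71 ± 0.13, although reads may be divided between them. STI1, which links Hsp70 to Hsp90, rose by 4.30 ± 0.14, CPR6 by 3.73 ± 0.13 and AHA1, which activates the Hsp90 ATPase, by 2.61 ± 0.14. PPT1, the phosphatase of the complex, fell, by 2.05 ± 0.13 on the log2 scale. The CCT chaperonin, the ring that folds actin and tubulin, and the prefoldin that serves it went the other way: 10 of 14 genes fell and 1 rose (YKE2, not called when either 30 °C replicate or replicate 1 at 40 °C was left out). CCT8 had 209.9 and 205 CPM at 40 °C, against 600.0 and 569 CPM at 30 °C (log2 -1.49 ± 0.12), and CCT5, CCT7 and CCT2 changed by -1.41, -1.36 and -1.30.

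Chaperone genes of mitochondria and of the ER took part. Of 10 mitochondrial genes 8 rose and 2 fell. The matrix disaggregase HSP78 had 15022 and 15275 CPM at 40 °C, against 136 and 125 CPM at 30 °C (log2 6.86 ± 0.23), and the chaperonin gene HSP60 7277 and 7029 CPM at 40 °C, against 1260.2 and 1295 CPM at 30 °C. Both were separated in all libraries. MDJ1 rose by 4.10 ± 0.14, HSP10 by 3.10 ± 0.24 and SSC1, the matrix Hsp70, by 2.0 ± 0.14, whereas MGE1, the nucleotide exchange factor of Ssc1, and the Lon protease gene PIM1 changed by -1.24 ± 0.11 and -0.74 ± 0.11. SSQ1 was called at 0.37 ± 0.12 but not without either 30 °C replicate or without replicate 2 at 40 °C (adjusted p = 0.0559, 0.106 and 0.0843). In the ER folding list 11 of 13 rose and 1 fell (CNE1, the calnexin gene, -1.01 ± 0.16). KAR2, the ER Hsp70, had 10748 and 7470.3 CPM at 40 °C, against 1129 and 1178 CPM at 30 °C, and ERO1, which drives disulfide formation, 4431 and 4269 CPM at 40 °C, against 347 and 305 CPM at 30 °C. KAR2 was the more variable at 40 °C, yet both of its libraries lay above both at 30 °C (log2 2.98 ± 0.18, against 3.74 ± 0.14 for ERO1). The ER genes SIL1 and MPD1 rose by 2.18 ± 0.11 and 2.88 ± 0.13.

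Leaving out the CCT and prefoldin list, the 62 chaperone genes of the other 6 lists, of which 45 rose and 13 fell, made up 19.3 and 18.4% of the counts at 40 °C, against 2.52 and 2.58% at 30 °C. The 10 genes with the largest gain in CPM, SSA4, HSP82, HSP104, HSP78, HSC82, KAR2, HSP26, SIS1, HSP30 and the hexokinase gene HXK1, alone held 14.4 and 13.9% at 40 °C, against 0.796 and 0.876% at 30 °C. A share is of counts and not of molecules, since long transcripts give more reads. Wilson 95% intervals for the shares of the lists and groups were at most 0.0262 percentage points to either side and cover counting error only.

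**Figure D2:**
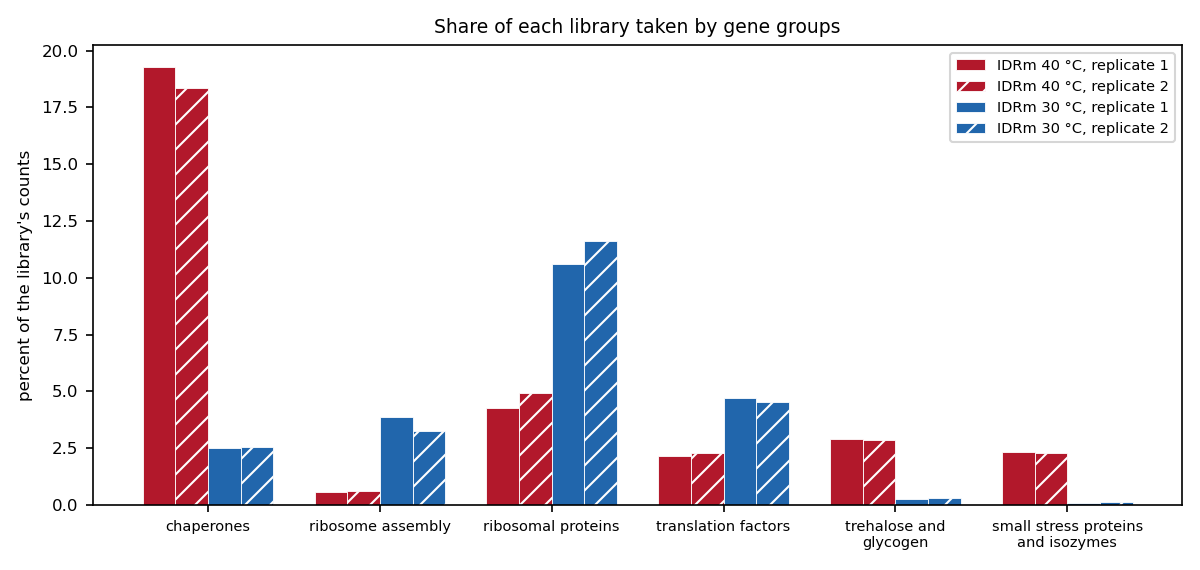
Percent of each library's counts (bars start at 0) taken by 6 groups of genes, with red for IDRm at 40 °C and blue for IDRm at 30 °C and hatching for replicate 2. Chaperones took 18.4 to 19.3% at 40 °C, against 2.52 to 2.58% at 30 °C, and ribosomal proteins 4.29 to 4.93%, against 10.6 to 11.6%.

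Promoters of the risen genes are shown because the heat shock element (HSE) and the stress response element (STRE) are the binding sequences of Hsf1 and of Msn2 and Msn4. They were read from the R64 genome on the strand of the gene, 5′ to 3′. The first 3 hold an HSE and the fourth holds STRE alone. The stretches are those of HSP42 (chrIV:806371-806450, plus strand), HSP78 (chrIV:974364-974493, minus strand), KAR2 (chrX:381077-381156, plus strand) and HSP12 (chrVI:107006-107085, plus strand), and capitals mark matches to the HSE, searched as GAA, TTC and GAA or as TTC, GAA and TTC with 2 free bases between the units, and to STRE as CCCCT, on either strand.
HSP42: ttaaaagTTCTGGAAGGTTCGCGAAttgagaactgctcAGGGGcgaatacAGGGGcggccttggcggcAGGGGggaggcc
HSP78: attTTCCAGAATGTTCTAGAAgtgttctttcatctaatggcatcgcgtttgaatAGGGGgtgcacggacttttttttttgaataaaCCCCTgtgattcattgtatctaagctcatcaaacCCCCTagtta
KAR2: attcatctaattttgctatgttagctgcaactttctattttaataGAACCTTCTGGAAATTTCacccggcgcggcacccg
HSP12: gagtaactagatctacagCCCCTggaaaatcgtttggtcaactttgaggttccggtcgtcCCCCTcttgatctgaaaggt
In the first 3 promoters a pair of HSE matches overlapped, so that the GAA and TTC units stand in 1 capital run. HSP42 and HSP78 each have 3 STRE matches beside it, KAR2 has 0 in its window, and HSP12 has 2 STRE matches and 0 HSE matches. Searched over 250 bases before to 50 after the coding start of 6001 genes, the HSE was found in 0.783% of all promoters and in 4% of the 200 genes that rose by at least 8-fold, which is 8 genes. STRE was found in 21.6% of all and in 48% of those 200. Genes that rose by 2- to 8-fold were between, with 1.44% and 35.7%, and of 80 genes that fell by at least 8-fold 1.25% held the HSE and 6.25% STRE. Read from the motif, 25 of 45 genes with an HSE were called higher (55.6%, against 37.8% of all genes), as were 121 of 171 with STRE at 2 or more places (70.8%) and 581 of 1096 with STRE at 1 place (53.0%), with medians of 0.95, 1.23 and 0.47. Among the lists, 17 of 27 small stress and isozyme genes held STRE and 0 the HSE, while 3 of 10 mitochondrial chaperone genes held the HSE. A strict 3-unit HSE was searched, and SSA4 and HSP104 had STRE matches and 0 HSE matches in their windows.

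Genes of small stress proteins and of isozymes that replace the growth forms of metabolic enzymes rose without exception, 26 of the 26 tested out of 27, with a median of 3.94. They made up 2.32 and 2.31% of the counts at 40 °C, against 0.0921 and 0.115% at 30 °C. The smallest change among them, 0.87, was that of ALD4, named after its value was seen.

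Reserve carbohydrate genes rose in parallel for synthesis and breakdown. Of 10 trehalose genes 9 rose and 0 fell, and of 10 glycogen genes 9 and 0. TSL1, a regulatory subunit of trehalose synthase, had 4124 and 3472 CPM at 40 °C, against 85.4 and 91.0 CPM at 30 °C. PGM2, the phosphoglucomutase that feeds both sugars, had 5465 and 5661 CPM at 40 °C, against 66.3 and 73.8 CPM at 30 °C, whereas its isozyme gene PGM1 had 355 and 361 CPM at 40 °C, against 344 and 333 CPM at 30 °C. PGM2 changed by 6.31 ± 0.20, and PGM1 was not called (0.08 ± 0.12). TPS1 and TPS2, which make trehalose, rose by 3.49 ± 0.16 and 3.90 ± 0.14, and the trehalase genes NTH1, NTH2 and ATH1, which break it down, by 1.91 ± 0.13, 1.20 ± 0.12 and 2.42 ± 0.13. For glycogen, the synthase GSY1 had 1472 and 1364 CPM at 40 °C, against 27.9 and 33.8 CPM at 30 °C, and the phosphorylase GPH1, which degrades it, 3376 and 3424 CPM at 40 °C, against 147 and 160.4 CPM at 30 °C. Both directions of the pathway were thus higher in each 40 °C library. GLC3, the branching enzyme, rose by 4.48 ± 0.17, the debranching enzyme GDB1 by 2.59 ± 0.13, and GLG2, which primes the polymer, was not called (0.39 ± 0.17). PIG1 (0.52 ± 0.15) was not called without replicate 2 of either temperature (adjusted p = 0.0806 at 30 °C and 0.0507 at 40 °C). Both pathways together took 2.93 and 2.87% of the counts at 40 °C, against 0.276 and 0.299% at 30 °C.

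Of 31 antioxidant genes 23 rose and 3 fell (CCS1, GSH1 and GSH2). The cytosolic catalase CTT1 had 2026 and 1840.0 CPM at 40 °C, against 19.3 and 20.2 CPM at 30 °C (log2 6.61 ± 0.19), and GPX1, a glutathione peroxidase, 60.1 and 61.7 CPM at 40 °C, against 4.39 and 4.33 CPM at 30 °C (3.8 ± 0.25). The peroxiredoxin genes PRX1 and TSA2 rose by 3.14 ± 0.18 and 3.05 ± 0.28. In the ubiquitin system 12 of 21 rose and 4 fell (UBA1, UBR1, SAN1 and RSP5), led by polyubiquitin, UBI4, with 3653 and 3631 CPM at 40 °C, against 257 and 269.5 CPM at 30 °C. The groups were apart by a change of 3.79 ± 0.15. The conjugating enzyme UBC4 and the deubiquitinase DOA4 rose by 1.82 ± 0.15 and 2.07 ± 0.14. Proteasome subunits moved little: 10 of 33 rose, none by 2-fold, and 3 fell (PUP1, RPN7 and RPN10, of which only RPN10 was called when replicate 2 at 30 °C or either 40 °C replicate was left out), although RPN4, the activator of the proteasome genes, had 649.6 and 651 CPM at 40 °C, against 83.6 and 81.4 CPM at 30 °C (2.98 ± 0.12). The proteasome list had a median of 0.11, near the 0.08 of all genes. Its shares called higher and lower, 30.3% and 9.09%, were below the 37.8% and 32.6% of all genes. Among the autophagy genes 17 of 21 rose and 1 fell (VPS15, not called without any 1 of the 4 libraries). ATG8, whose product coats the autophagosome, had 61.8 and 69.0 CPM at 40 °C, against 8.98 and 12 CPM at 30 °C, and ATG7, ATG3 and ATG17 rose by 2.48 ± 0.13, 2.35 ± 0.11 and 1.81 ± 0.15.

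Sugar uptake and phosphorylation changed in its isoforms. Of 18 hexose transporter and hexokinase genes 13 rose and 2 fell (HXT1 and RGT2). HXT5, a transporter made in slowly growing cells, had 746 and 793 CPM at 40 °C, against 4.88 and 5.72 CPM at 30 °C. The high-affinity transporter HXT7 had 585 and 595 CPM at 40 °C, against 24.1 and 25.5 CPM at 30 °C and its near-identical neighbour HXT6 88.7 and 97.6 CPM at 40 °C, against 0.488 and 1.57 CPM at 30 °C. All were higher at 40 °C, but reads cannot be assigned between HXT6 and HXT7 with certainty, and HXT6 changed by 5.84 or 7.50 when replicate 1 or 2 at 30 °C was left out, against 6.46 ± 0.27 with both. HXK1, the hexokinase repressed in glucose-grown cells, had 6826 and 6770.1 CPM at 40 °C, against 64.1 and 75.9 CPM at 30 °C (log2 6.60 ± 0.33). The low-affinity transporter HXT1 was lower in each 40 °C library, with 43.8 and 41.7 CPM at 40 °C, against 158 and 162 CPM at 30 °C (log2 -1.91 ± 0.17).

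In the glycolytic list 7 of 18 genes rose (38.9%, near the 37.8% of all genes; 6 to 11 over the alternatives) and 1 fell (CDC19, not called without replicate 2 of either temperature), and the largest changes were those of minor isozymes. TDH1, a glyceraldehyde-3-phosphate dehydrogenase, had 2078 and 2249 CPM at 40 °C, against 298 and 314 CPM at 30 °C, and PYK2, a pyruvate kinase, 568 and 569.9 CPM at 40 °C, against 79.4 and 86.8 CPM at 30 °C. Both were separated (2.82 ± 0.14 and 2.77 ± 0.15), while the main pyruvate kinase gene CDC19 changed by -0.42 ± 0.15. Of 17 TCA cycle genes 13 rose and 2 fell, with CIT1, the mitochondrial citrate synthase, at 2.2 ± 0.13 and MDH1, malate dehydrogenase, at 2.15 ± 0.13. Of 24 nuclear genes of the respiratory chain 20 rose and 0 fell. CYC7, the hypoxic form of cytochrome c, had 399 and 407 CPM at 40 °C, against 4.30 and 3.87 CPM at 30 °C (6.62 ± 0.30), and CYB2, which oxidises lactate, 253 and 265 CPM at 40 °C, against 15.7 and 16.8 CPM at 30 °C (3.99 ± 0.12). Of 17 ATP synthase genes 11 rose and 0 fell. STF2, a regulator of the enzyme, had 1077 and 1208 CPM at 40 °C, against 25.8 and 30.7 CPM at 30 °C, and STF1, the subunit gene ATP18 and the inhibitor INH1 rose by 3.19 ± 0.31, 2.05 ± 0.23 and 1.61 ± 0.17. Of 23 gluconeogenic and glucose-repressed genes 17 rose and 2 fell (ADH2 and ATO3), led by the activators SIP4 (4.52 ± 0.15) and CAT8 (2.45 ± 0.14) and by the carnitine carrier CRC1 (2.86 ± 0.20).

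The genes of the regulators themselves rose by small amounts. HSF1 had 93.3 and 77.3 CPM at 40 °C, against 34.6 and 38.9 CPM at 30 °C and changed by 1.21 ± 0.16. MSN2 and MSN4 had 39.1 and 37.8 CPM at 40 °C, against 20.4 and 19.4 CPM at 30 °C, and 20.1 and 18.8 CPM at 40 °C, against 10.9 and 8.21 CPM at 30 °C, with changes of 0.95 ± 0.14 and 1.03 ± 0.18. All of their 40 °C libraries were higher than those at 30 °C. Of 21 stress transcription factor genes 15 rose and 4 fell (YAP1, SKN7, GCN4 and HAC1), with the largest rises in MGA1 (3.8 ± 0.23), CIN5, a Yap family factor (3.11 ± 0.15), RPN4 (2.98 ± 0.12) and HAP4, the activator of respiratory genes (2.64 ± 0.21). In the protein kinase A pathway 7 of 11 genes rose and 3 fell (TPK3, RAS1 and IRA1). TPK3, a catalytic subunit of the kinase, had 56.2 and 58.8 CPM at 40 °C, against 168 and 152 CPM at 30 °C. It was lower in each 40 °C library (-1.48 ± 0.11). The RAS genes moved apart, RAS2 at 1.46 ± 0.12 and RAS1 at -1.88 ± 0.15. PDE1 and IRA2, which lower cAMP or Ras activity, rose by 1.83 ± 0.11 and 1.61 ± 0.16.

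Most of the genes that fell furthest act in ribosome assembly. Of 48 genes of the small-subunit processome, which processes the first rRNA precursor in the nucleolus, 48 fell, 45 of them by at least 2-fold, with a median of -2.70. Of 69 factors of 60S assembly 67 fell, 63 by at least 2-fold, with a median of -2.64. In neither list did a gene rise, against 32.6% of all genes called lower and 37.8% higher. NSR1, the nucleolin homologue (YGR159C, chromosome VII, 806412 to 807656), had 7.99 and 19 CPM at 40 °C, against 593 and 399.6 CPM at 30 °C. ALB1, a shuttling 60S factor, had 2.83 and 7.15 CPM at 40 °C, against 134 and 113 CPM at 30 °C. CIC1, another 60S factor, had 2.53 and 5.09 CPM at 40 °C, against 95.6 and 82.1 CPM at 30 °C. In all 3 both 40 °C libraries were far below those at 30 °C while replicate 2 at 40 °C lay above replicate 1. Their changes of -5.20 ± 0.34, -4.62 ± 0.26 and -4.53 ± 0.32 became -5.96, -5.45 and -5.13 without that replicate.

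UTP9, an early processome protein, had 14.5 and 18.3 CPM at 40 °C, against 339 and 288 CPM at 30 °C (log2 -4.26 ± 0.20), and RIX7, an ATPase that strips factors from the large subunit, 21.3 and 31.1 CPM at 40 °C, against 460.2 and 424 CPM at 30 °C (-4.07 ± 0.21). The helicase genes DHR2 and DBP7 changed by -4.45 ± 0.21 and -4.30 ± 0.21, the RNA-binding protein gene PUF6 by -4.50 ± 0.28, the export factor ARX1 by -4.17 ± 0.22, RSA4 by -4.02 ± 0.18 and the methyltransferase SPB1 by -4.01 ± 0.30. Of the 12 lowest genes with at least 32 CPM and no overlapping gene, FCY2 encodes no ribosome factor but the purine and cytosine permease, and it had 27.8 and 51.9 CPM at 40 °C, against 777 and 702 CPM at 30 °C (-4.21 ± 0.23). As a group the 117 assembly genes took 0.583 and 0.623% of the counts at 40 °C, against 3.87 and 3.27% at 30 °C.

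Upstream sequence of 4 of these genes is shown because they share a pair of short motifs named PAC and RRPE, known from promoters of ribosome assembly genes. They are UTP9 (chrVIII:491756-491835, plus strand), CIC1 (chrVIII:210673-210752, plus strand), RIX7 (chrXII:73242-73321, minus strand) and ALB1 (chrX:189541-189620, plus strand), read as above. Capitals mark matches to PAC as GATGAG and to RRPE as AAAAATTTT, on either strand, and overlapping RRPE matches form 1 run.
UTP9: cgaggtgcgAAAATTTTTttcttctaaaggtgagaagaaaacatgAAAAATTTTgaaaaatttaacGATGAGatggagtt
CIC1: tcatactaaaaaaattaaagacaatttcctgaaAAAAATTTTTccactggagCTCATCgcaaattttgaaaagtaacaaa
RIX7: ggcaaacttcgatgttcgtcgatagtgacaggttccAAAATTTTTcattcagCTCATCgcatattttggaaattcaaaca
ALB1: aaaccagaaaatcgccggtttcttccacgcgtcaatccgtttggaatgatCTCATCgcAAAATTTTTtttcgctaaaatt
In each of the 4 a PAC match and an RRPE match lie between 96 and 175 bases before the coding start. PAC was present in 80% of the 80 promoters of genes that fell by at least 8-fold, against 20.4% of all 6001 promoters, and RRPE in 68.8%, against 6.98%. Both together were present in 60%, against 3.58%. Genes that fell by 2- to 8-fold held PAC in 38.4%, RRPE in 20.6% and both in 13.5%, and those that rose by at least 8-fold held both in 0.500%. Of the 213 tested genes with both motifs 175 were called lower (82.2%, against 32.6% of all genes) and 19 higher (8.92%, against 37.8%), with a median of -1.66. Each motif was less telling when the other was not required. Of 1134 genes with PAC 48.9% were called lower and 28.5% higher, with a median of -0.34. Of 414 genes with RRPE 67.6% were called lower and 15.5% higher, with a median of -1.05. Among the lists, 43 of 48 processome genes held PAC and 32 RRPE, and 63 of 69 genes of 60S assembly held PAC and 47 RRPE. Of 56 genes of 40S ribosomal proteins only 7 held PAC and 2 RRPE, although these genes fell too. In other translation genes, 11 of 15 promoters of elongation and termination factors and 10 of 18 of the aminoacyl-tRNA synthetases held RRPE, while 2 and 5 held PAC.

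**Figure D3:**
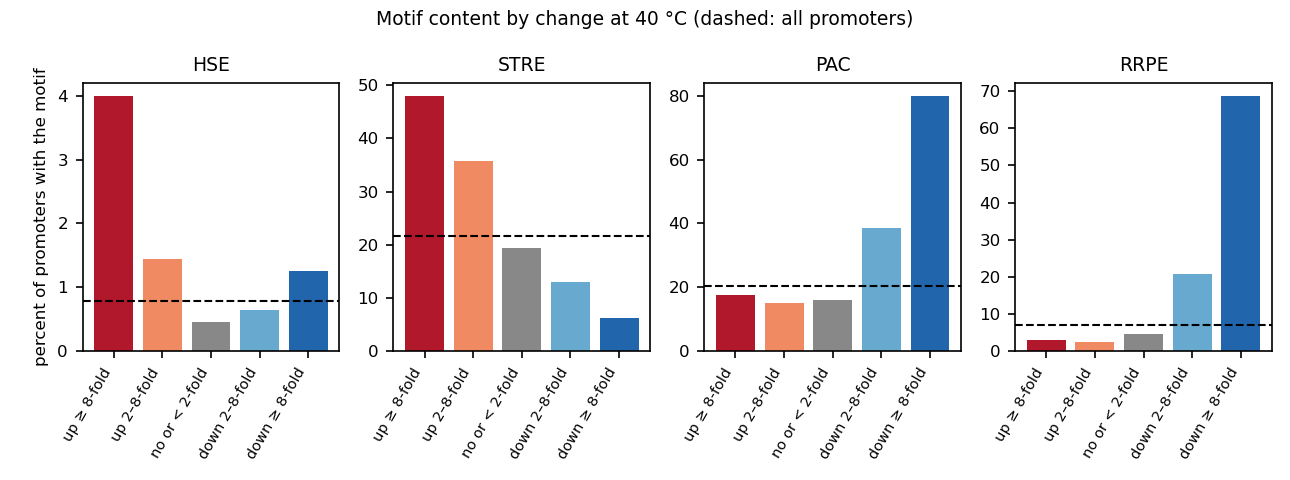
Percent of promoters (bars start at 0, scales differ) that hold each of 4 motifs, for genes grouped by their change in IDRm at 40 °C, from the largest rise on the left to the largest fall on the right, with a dashed line for all promoters. STRE goes from 48% on the left to 6.25% on the right, and RRPE from 3% to 68.8%.

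Subunits of the polymerases that transcribe ribosomal and transfer RNA fell as well. For RNA polymerase I 10 of 14 genes fell and 1 rose (RPA14, 1.33 ± 0.19), and for RNA polymerase III 13 of 15 fell and 1 rose (BDP1, not called without replicate 1 of either temperature). RPA43 of polymerase I had 12.2 and 16.7 CPM at 40 °C, against 255 and 204 CPM at 30 °C (log2 -3.98 ± 0.22), and RPO31, the largest subunit of polymerase III, 75.3 and 86.9 CPM at 40 °C, against 559.9 and 467 CPM at 30 °C (-2.66 ± 0.14). RPA34 and RPA49 changed by -2.67 ± 0.18 and -2.61 ± 0.15. RPA12 changed by -4.39 ± 0.55 but had under 1 CPM in both 40 °C libraries, and without replicate 1 or 2 at 40 °C the value was -3.77 or -5.59.

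Genes of the ribosomal proteins themselves fell with smaller medians. Of 56 genes of the 40S subunit 54 fell and 0 rose (median -1.03), and of 77 genes of the 60S subunit 67 fell and 1 rose (median -0.95). The gene that rose, RPL15B, was named after its value was seen (0.44 ± 0.16), and it was not called without either 30 °C replicate or replicate 1 at 40 °C. RPS9A had 85.2 and 92.2 CPM at 40 °C, against 462 and 474 CPM at 30 °C, RPS27A 9.31 and 6.76 CPM at 40 °C, against 40.8 and 48.9 CPM at 30 °C, and RPL18B 41.7 and 49.0 CPM at 40 °C, against 217 and 238 CPM at 30 °C. These were among the largest falls, -2.40 ± 0.13, -2.48 ± 0.20 and -2.33 ± 0.12. RPL3, a single-copy gene whose product reaches the peptidyl transferase centre, had 3586 and 3671 CPM at 40 °C, against 8688 and 8601 CPM at 30 °C (-1.25 ± 0.13). Ribosomal protein genes with more than 1 coding part and with 1 had medians of -1.06 and -0.95. Most of these proteins come from gene pairs of near-identical sequence, so values of single paralogs are uncertain. The 137 genes took 4.29 and 4.93% of the counts at 40 °C, against 10.6 and 11.6% at 30 °C. Of the mitochondrial ribosomal protein genes 19.7% were called higher and 28.8% lower, against 37.8% and 32.6% of all genes. Mitochondrial ribosomal proteins had a median of 0.00, with 13 of 66 higher and 19 lower (3 to 7 higher when 1 library was left out).

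Translation factors fell in most of their steps. Of 12 genes of eIF2, its exchange factor eIF2B and eIF5 11 fell and 0 rose, of 9 genes of eIF3, eIF1, eIF1A and eIF5B 7 and 0, of 14 elongation and termination genes 9 and 1 (HEF3), and of 18 cytosolic aminoacyl-tRNA synthetase genes 14 and 0. NIP1, an eIF3 subunit, had 99.0 and 93.6 CPM at 40 °C, against 681 and 713 CPM at 30 °C (log2 -2.86 ± 0.14), and TIF5, which encodes eIF5, 153 and 177 CPM at 40 °C, against 837 and 741 CPM at 30 °C (-2.26 ± 0.15). TIF11, for eIF1A, had 235 and 244 CPM at 40 °C, against 227 and 235 CPM at 30 °C. It was not called (0.05 ± 0.11). SUP45 and SUP35, the termination factors, changed by -2.16 ± 0.16 and -1.72 ± 0.13, and ALA1, the alanyl-tRNA synthetase, by -2.23 ± 0.15. YEF3, the fungal elongation factor, lost more CPM than any other gene, with 8955 and 9568 CPM at 40 °C, against 18796 and 17730.0 CPM at 30 °C (-0.98 ± 0.14). Together 47 translation factor genes took 2.15 and 2.27% of the counts at 40 °C, against 4.71 and 4.53% at 30 °C.

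In the complex that Ded1 works with, 6 of 11 genes of cap binding and scanning fell and 2 rose (DBP1 and EAP1). TIF4631, an eIF4G scaffold, had 356 and 361 CPM at 40 °C, against 1292 and 1187 CPM at 30 °C (-1.79 ± 0.11), while its paralog TIF4632 had 359 and 330.5 CPM at 40 °C, against 303 and 282 CPM at 30 °C and was not called (0.24 ± 0.15). CDC33, the cap-binding eIF4E, had 149.7 and 171 CPM at 40 °C, against 455 and 442 CPM at 30 °C, and TIF3, for eIF4B, 344 and 376 CPM at 40 °C, against 1226 and 1086 CPM at 30 °C. Both fell (-1.48 ± 0.12 and -1.68 ± 0.13). DBP1, the paralog of DED1, rose: it had 57.2 and 64.7 CPM at 40 °C, against 26.6 and 24.5 CPM at 30 °C, a change of 1.26 ± 0.15, and stood below DED1 in CPM in each library. EAP1, an inhibitor of eIF4E, was called at 0.63 ± 0.21, but not without replicate 2 at 30 °C or replicate 1 at 40 °C (adjusted p = 0.185 and 0.0995), and TIF1 (eIF4A) at -0.44 ± 0.12 but not without replicate 1 at 40 °C (0.0604). PAB1, the poly(A)-binding protein, had 240.2 and 199.6 CPM at 40 °C, against 641 and 785 CPM at 30 °C (-1.70 ± 0.29). Of 26 stress granule and P-body genes 7 rose (3 without replicate 1 at 40 °C and 4 without replicate 2 at 30 °C) and 7 fell. The shares called higher and lower, 26.9% each, were below the 37.8% and 32.6% of all genes. EDC2, an activator of decapping, had 229 and 229.7 CPM at 40 °C, against 16.9 and 19.6 CPM at 30 °C (3.65 ± 0.12), and EDC3, which also acts in decapping, 65.8 and 59.3 CPM at 40 °C, against 222 and 217 CPM at 30 °C (-1.81 ± 0.13). XRN1, the main 5′ exonuclease, changed by -1.46 ± 0.11 and the helicase gene DHH1 by 0.95 ± 0.16.

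Biosynthesis and uptake for growth fell in part. Of 20 phosphate genes 17 fell. PHO84, the high-affinity phosphate carrier, had 50.4 and 92.1 CPM at 40 °C, against 1394 and 1270.1 CPM at 30 °C (log2 -4.22 ± 0.27), and VTC3 of the polyphosphate polymerase 406 and 510.4 CPM at 40 °C, against 2898 and 2856 CPM at 30 °C (-2.65 ± 0.13). The 2 that rose were PHM7 (419 and 375 CPM at 40 °C, against 4.59 and 5.07 CPM at 30 °C) and the phosphatase PHM8 (3.32 ± 0.13). PHM7 was higher in both 40 °C libraries, by 6.35 ± 0.19. Of 21 purine genes 19 fell and 1 rose (ADE16), with ADE4, the first enzyme of the pathway, at -3.0 ± 0.23, adenine deaminase AAH1 at -3.37 ± 0.17, HPT1 at -2.85 ± 0.14 and IMD4 at -2.85 ± 0.12. PHO84, IMD4 and ASC1 overlap other annotated genes, so reads may be shared. Of 60 amino acid genes outside the sulfur pathway 36 fell and 4 rose (HIS5, LYS1, HOM3 and GDH3). ILV5, of branched-chain synthesis, had 272 and 351 CPM at 40 °C, against 2020.4 and 1855 CPM at 30 °C (-2.64 ± 0.14). Of 26 sulfur and methionine genes 13 fell and 3 rose (SUL2, MET14 and MET28), with SAM1, which makes S-adenosylmethionine, at -2.67 ± 0.16 and methionine synthase MET6 at -2.49 ± 0.15. MET28 was called higher on 1.27 CPM or less, and not without replicate 2 of either temperature (adjusted p = 0.187 at 30 °C and 0.405 at 40 °C).

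FAS1 and FAS2, the subunits of fatty acid synthase, and ACC1, which supplies malonyl-CoA, changed by -1.25 ± 0.15, -1.71 ± 0.15 and -1.87 ± 0.16. The fatty acid activator FAA1 rose by 1.30 ± 0.12. Of 13 genes of the list 6 fell (46.2%, against 32.6% of all genes) and 3 rose (OLE1, ACB1 and FAA1, 23.1%, against 37.8%). The 10 genes with the largest loss in CPM, YEF3, RPL3, FAS2, PMA1, ASC1, RPS31, VTC3, FKS1, ALD6 and ITR1, held 2.74 and 2.91% of the counts at 40 °C, against 7.11 and 6.95% at 30 °C. PMA1, the plasma membrane proton pump, had 7195 and 7213 CPM at 40 °C, against 11036 and 9736 CPM at 30 °C (-0.53 ± 0.14), and the glucan synthase gene FKS1 1200.5 and 1295 CPM at 40 °C, against 3810.0 and 3317 CPM at 30 °C (-1.51 ± 0.13). The libraries of the groups did not overlap for either. Eisosome genes, for plasma membrane furrows, rose, PIL1 by 1.26 ± 0.12 and LSP1 by 1.54 ± 0.23.

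Of 26 cyclins and cell cycle regulators 11 fell and 9 rose. FAR1, which arrests the cycle in G1, had 20.9 and 29.9 CPM at 40 °C, against 258 and 244 CPM at 30 °C (-3.30 ± 0.15), and the mitotic cyclin CLB2 31.6 and 38.5 CPM at 40 °C, against 227 and 197 CPM at 30 °C (-2.60 ± 0.14). The G1 cyclin PCL1 changed by -3.11 ± 0.20 and the polo kinase CDC5 by -1.98 ± 0.14. Histone genes gave 5 of 10 higher (HTA1, HHT1, HHT2, HHF1 and HHF2) and 2 lower (HTA2 and HTB1). These are 50% and 20%, against 37.8% and 32.6% of all genes. HHF1 and HHF2, for H4, rose by 1.07 ± 0.13 and 0.94 ± 0.12, and HTA2, for H2A, fell (-0.65 ± 0.13); HHT1 was called at 0.39 ± 0.14 but not without either 30 °C replicate or without replicate 2 at 40 °C (adjusted p = 0.158, 0.0549 and 0.128). Cell wall genes were mixed, 12 of 33 higher and 11 lower, with TIP1 at 2.15 ± 0.13, the protease YPS1 at 1.64 ± 0.10 and the cross-linking enzyme UTR2 at -1.64 ± 0.14. The 34.6% of cell cycle genes and 36.4% of cell wall genes called higher are near the 37.8% of all genes.

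**Figure D4:**
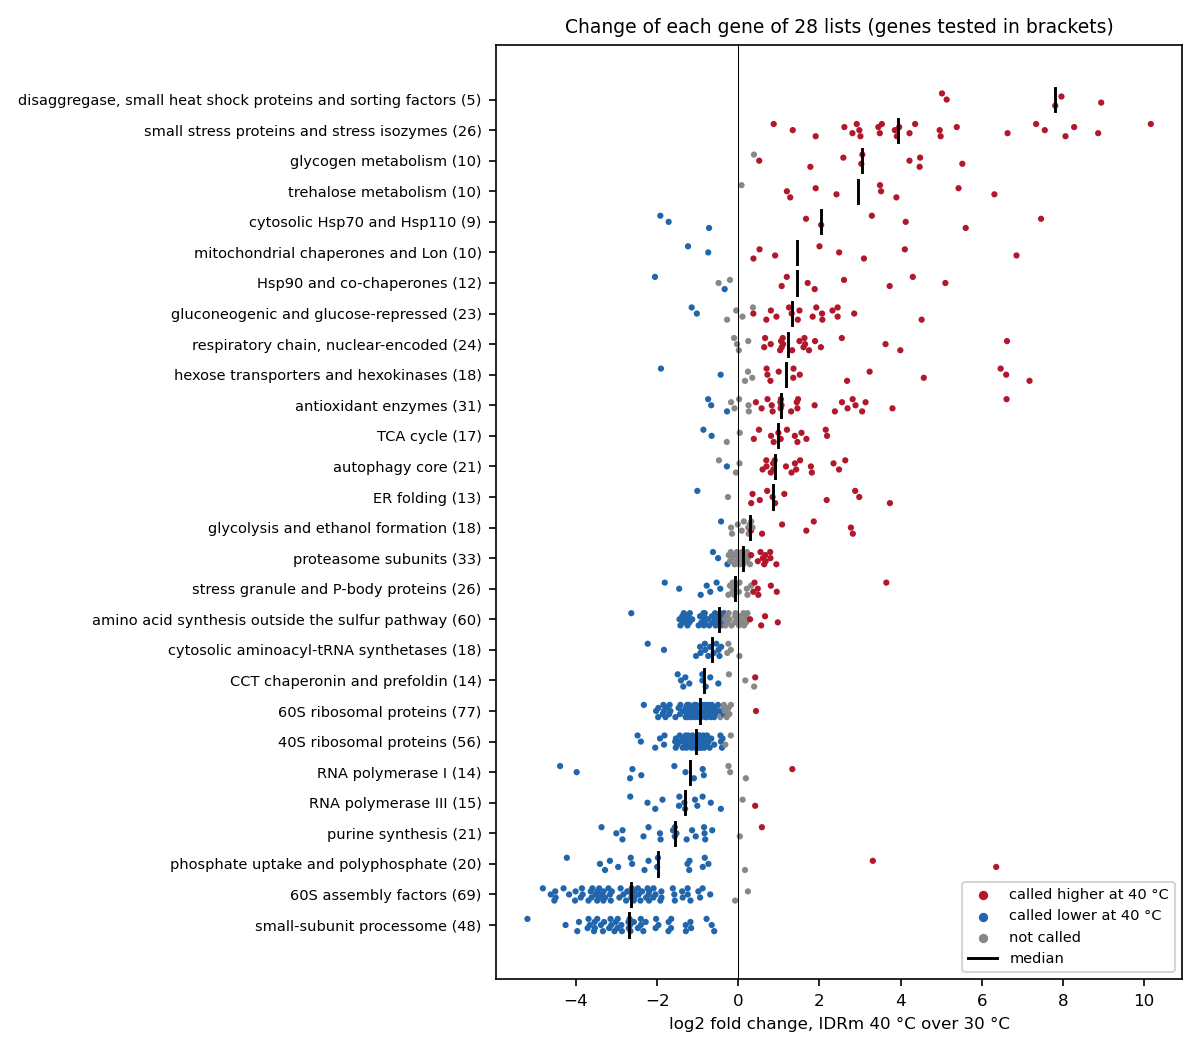
log2 fold change of IDRm at 40 °C over 30 °C for each tested gene of 28 lists, 1 dot a gene, coloured by call, with a black line for the list median. Medians run from 7.81 for the disaggregase and small heat shock list at the top to -2.70 for the small-subunit processome at the bottom, and lists such as Hsp70 and phosphate genes hold dots on both sides of 0.

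The genes that rose were shorter than those that fell. The 200 genes higher by at least 8-fold had a median length of 934.5 bases and the 80 genes lower by at least 8-fold 1560, against 1254 for 3731 genes not called or under 2-fold. Across 5 near-equal bins of gene length the median log2 change was 0.39 in the shortest, then 0.17, 0.09 and 0.05, and -0.31 in the longest. The same bins in WT ran 0.31, 0.10, 0.06, 0.07 and -0.20. Whether RNA quality or library preparation contributes to this was not tested.

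Libraries of pellet and soluble RNA of the same strain and temperatures give a further readout of these classes, described here without a test. In IDRm at 40 °C the 204 measured genes higher by at least 8-fold had a median pellet over soluble ratio of -0.74 and -0.77 (log2, relative to all genes, replicates 1 and 2), against 0.09 and 0.04 at 30 °C for the 166 measurable there (-0.03 and 0.02 with a minimum of 50 counts). The genes lower by at least 8-fold had -0.000265 and 0.29 at 40 °C, against -0.64 and -0.54 at 30 °C. The risen class thus lay more in the soluble RNA than the average gene at 40 °C in both replicates, while at 30 °C its medians were near those of all genes. Single genes of the risen class differed widely from each other. Their ratios are plain log2 ratios of CPM, not relative to all genes, so their size cannot be set against the class medians. At 40 °C BTN2 and HSP42 had more CPM in the pellet than in the soluble RNA, with ratios of 2.75 and 2.34, and of 1.30 and 1.33. HSP12 had -2.82 and -2.97, TMA10 -2.78 and -3.07, SPG4 -3.38 and -3.43 and EGO4 -3.30 and -3.70. The classes differ in length as well as in change, and the part of length in these ratios was not tested.

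WT cells held at 40 °C for the same time were compared to find where the effect of heat differed between the strains. The difference between the strains in the effect of 40 °C, IDRm minus WT, was called for 100 genes (1.64%), 61 higher (1.00%) and 39 lower (0.640%) in IDRm, and 868 genes had an unadjusted p under 0.05. Its median size was 0.22, near its median standard error of 0.21, whereas the heat effect itself had 0.70 and 0.15. The number of calls depended on the libraries: it was 739 without WT replicate 2 at 30 °C (301 higher and 438 lower), 74 without WT replicate 1 at 30 °C, 43 without WT replicate 1 at 40 °C, 36 without IDRm replicate 2 at 30 °C or replicate 1 at 40 °C, and 16 without WT replicate 2 at 40 °C, IDRm replicate 1 at 30 °C or IDRm replicate 2 at 40 °C. Of the 61 higher genes 42 had strains further apart at 40 °C, and of the 39 lower genes 26 had strains further apart at 30 °C (log2 ratio of mean CPM with 0.5 added).

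Genes of sugar uptake and use were among those called higher in IDRm. SUC2, the secreted invertase, had 253 and 259.7 CPM at 40 °C, against 90.1 and 90.1 CPM at 30 °C, in IDRm. In WT it had 108 and 104 CPM at 40 °C, against 126 and 92.6 CPM at 30 °C. Both IDRm libraries at 40 °C were above every other library, and the difference was 1.54 ± 0.19 (adjusted p = 0.00139). HXT4, a glucose transporter, had 279 and 292 CPM at 40 °C, against 112 and 110.1 CPM at 30 °C, in IDRm, and in WT 161 and 163 CPM at 40 °C, against 228 and 128 CPM at 30 °C. Its changes were 1.36 ± 0.19 in IDRm and -0.13 in WT, with a difference of 1.5 ± 0.27 (adjusted p = 0.0122). HXT6 had 88.7 and 97.6 CPM at 40 °C, against 0.488 and 1.57 CPM at 30 °C, in IDRm, and 15.8 and 16.3 CPM at 40 °C, against 2.01 and 1.45 CPM at 30 °C, in WT, a difference of 3.24 ± 0.49 (2.64 without IDRm replicate 1 at 30 °C and 4.30 without replicate 2). At 30 °C it rested on 5 and 17 counts in IDRm and 19 and 17 in WT. Reads may be divided between HXT6 and its neighbour HXT7, whose strain difference was not called. Of the 18 hexose transporter and hexokinase genes 4 differed, all higher in IDRm, and the other two were HXT2 and HXT3, named after their values were seen (1.09 ± 0.23 and 1.12 ± 0.22), neither of which kept its call in each fit with 1 library left out.

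Other genes were called higher in IDRm with levels that lay apart at 40 °C. SSA3 reached 3352 and 3461 CPM in IDRm at 40 °C, against 2275 and 1896 CPM in WT, a difference of 1.21 ± 0.18 in the heat effect. Part of this lay at 30 °C, where SSA3 had 71.0 and 69.1 CPM in IDRm, against 103 and 95.2 CPM in WT. CYB2 differed by 1.16 ± 0.17, glycogen synthase GSY2 by 0.90 ± 0.18, ALD3, an aldehyde dehydrogenase, by 1.43 ± 0.29 and catalase CTT1 by 0.92 ± 0.22, each with both IDRm libraries above both WT libraries at 40 °C. SSA3 and CYB2 kept their call with any 1 library left out, GSY2 lost it without WT replicate 2 at 40 °C or any 1 IDRm library (adjusted p = 0.0639 to 0.151) and from the 8 libraries alone (0.0510), and CTT1 without any 1 library other than WT replicate 2 at 30 °C (0.108 to 0.245) and from the 8 libraries alone (0.10).

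For a further set the strains lay apart at 30 °C. HSP30 had 9.18 and 3.60 CPM in IDRm at 30 °C, against 29.7 and 71.0 CPM in WT. At 40 °C it had 7117 and 7477 CPM in IDRm, against 6363 and 6447 CPM in WT. The levels at 40 °C were thus close, and the difference of 3.18 ± 0.54 lay in the levels at 30 °C; it was 2.40 without WT replicate 2 at 30 °C and 3.99 without IDRm replicate 1 at 30 °C. UBI4 was similar, with 257 and 269.5 CPM in IDRm at 30 °C, against 748 and 565 CPM in WT, and a difference of 1.31 ± 0.19. HSP26 (1.77 ± 0.26) and SOL4 (1.75 ± 0.29) also had lower levels in IDRm at 30 °C. Of 26 sulfur genes 5 differed, all higher in IDRm, namely MET2, MET3, MET5, MHT1 and STR3, named after their values were seen, and each of them had lower levels in IDRm than in WT at 30 °C and lost its call in at least 3 of the 8 fits with 1 library left out.

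Genes of ribosome assembly were among the 39 that were lower. RRP7, a processome factor, had 100 and 103 CPM at 40 °C, against 156 and 150.3 CPM at 30 °C, in IDRm, and 78.1 and 92.7 CPM at 40 °C, against 43.6 and 66.1 CPM at 30 °C, in WT. It fell in IDRm (-0.59 ± 0.15) and changed by 0.63 in WT, a difference of -1.23 ± 0.22. LOC1, of 60S assembly, differed by -1.11 ± 0.23 and PXR1, an rRNA processing factor, by -1.13 ± 0.26. In the processome and 60S assembly lists 3 genes each were lower and 0 higher, of 48 and 69 tested (RRP7, UTP11 and KRR1, and CGR1, LOC1 and DRS1), and each of the 6 lost its call without WT replicate 2 or IDRm replicate 2 at 40 °C. Their summed share was 0.583 and 0.623% of the counts at 40 °C, against 3.87 and 3.27% at 30 °C, in IDRm, and 0.602 and 0.668% of the counts at 40 °C, against 2.02 and 2.97% at 30 °C, in WT. The strains were close at 40 °C, and at 30 °C the WT libraries lay below both of IDRm and far from each other. BRE5, a cofactor of a deubiquitinase, had 89.5 and 84.4 CPM at 40 °C, against 128 and 117 CPM at 30 °C, in IDRm, and 98.2 and 110.0 CPM at 40 °C, against 52.8 and 69.8 CPM at 30 °C, in WT, a difference of -1.25 ± 0.19. EAF7, a subunit of the NuA4 acetyltransferase, and BSC5 differed by -1.26 ± 0.25 and -1.15 ± 0.20.

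Of the 12 genes named for the strain difference, HSP26, SUC2 and BRE5 kept their call in each fit with 1 library left out and in the fit of the 8 libraries alone. In that fit HSP30, HXT4, ALD3, RRP7 and LOC1 lost it (adjusted p = 0.0505, 0.0531, 0.0752, 0.0510 and 0.0531). HSP30 lost it without any 1 of the 4 libraries at 40 °C (adjusted p = 0.0715 to 0.108), and SOL4 without IDRm replicate 1 at 30 °C (0.0888). HXT4 lost it without WT replicate 2 at 40 °C, either IDRm replicate at 30 °C or IDRm replicate 2 at 40 °C (0.0515 to 0.0725), and so did BSC5 (0.0515 to 0.0712). RRP7 lost it without WT replicate 2 at 40 °C, IDRm replicate 1 at 30 °C or either IDRm replicate at 40 °C (0.0577 to 0.0912). ALD3 (0.0502 to 0.159) and LOC1 (0.0515 to 0.223) lost it without any 1 library other than WT replicate 2 at 30 °C and WT replicate 1 at 40 °C, and EAF7 (0.0501 to 0.108) and PXR1 (0.0721 to 0.223) without any 1 library other than WT replicate 2 at 30 °C. HSP104, HSP82, KAR2 and SIS1 differed by 0.09 ± 0.19, 0.02 ± 0.20, 0.03 ± 0.24 and 0.21 ± 0.18, none of them called, and HSF1 by -0.10 ± 0.22. Other chaperone genes had larger differences that were not called either. These were 1.01 ± 0.29 for SSA4, 1.17 ± 0.42 for HSP42, 1.11 ± 0.50 for BTN2 and 0.61 ± 0.26 for HSP78. For each of them both WT libraries at 30 °C lay above both of IDRm, and WT replicate 2 was the higher. At 30 °C HSP42 had 11.7 and 28.6 CPM in WT, against 7.13 and 5.81 CPM in IDRm. BTN2 had 11.5 and 30.5 CPM in WT, against 8.50 and 7.01 CPM in IDRm. At 40 °C HSP42 (2016 and 2067 CPM) and BTN2 (2326 and 2599 CPM) were higher in both WT libraries than in either of IDRm. The disaggregase and small heat shock list had a median difference of 1.11, which was that of BTN2, with 1 of 5 genes called. The median was 0.14 for the Hsp70 list and -0.08 for the Hsp90 list. The 62 chaperone genes took 19 and 18.3% of the counts at 40 °C, against 2.86 and 2.85% at 30 °C, in WT, beside the IDRm values above.

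**Figure D5:**
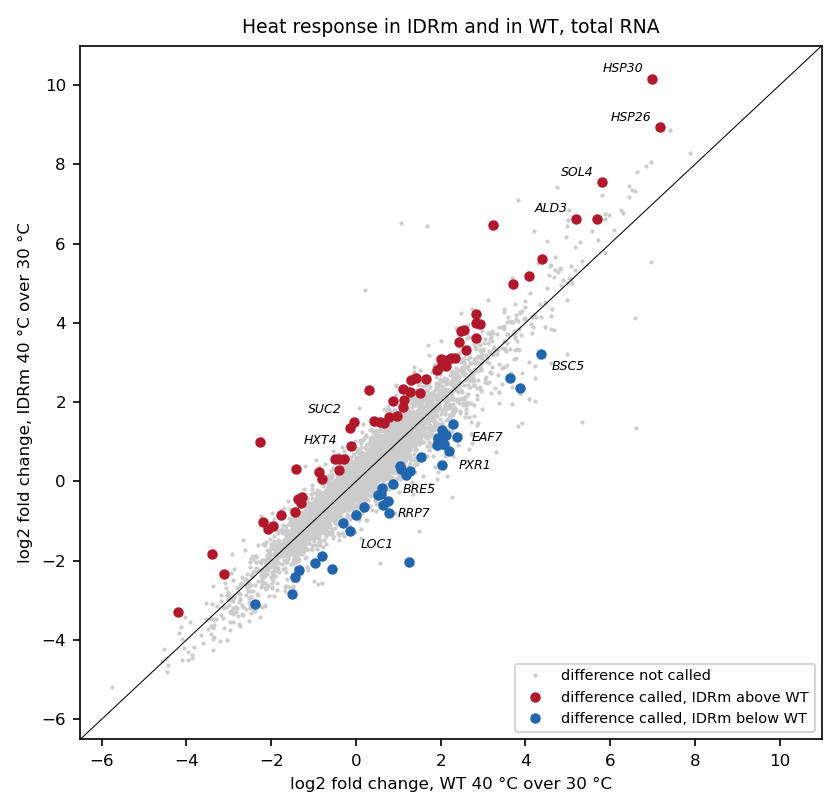
log2 fold change of 40 over 30 °C in IDRm (vertical axis) against WT (horizontal axis) for 6090 tested genes, with the line of equal change. Red and blue dots mark the 61 and 39 genes whose difference was called, and the 12 named genes carry their symbols, HSP30 at the top right with 10.17 in IDRm and 6.98 in WT.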

How the data were processed

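Total RNA of IDRm at 40 and 30 °C is compared, with WT beside it, 2 libraries a group. The submitters' processing notes name bcl2fastq 2.19.1, STAR 2.5.2b and the build R64. The deposited table holds unnormalized counts of reads for each gene. Which counter, strand setting and annotation made them is not given in the sources used here, and close paralogs and overlapping genes are taken as uncertain. Of 6697 genes 6014 matched the R64 annotation by locus tag, and the 683 others held at most 0.310% of a library's counts.

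Genes passing edgeR's filterByExpr (minimum count 10) were fitted by quasi-likelihood with robust dispersion and TMM scaling, 1 term for each of 6 groups, over the 12 total RNA libraries (6 residual degrees of freedom; edgeR 4.0.16, limma 3.58.1, R 4.3.3). Calls are Benjamini-Hochberg adjusted p under 0.05 over all genes tested. The strain difference is the interaction contrast. Motifs were matched in R64 promoters with Python 3.11.15, and the coding start was used, since the annotation has no UTRs. Change classes for promoters and lengths hold coding genes of the annotation. Those for fractions hold any tested gene with at least 10 counts in each pellet and soluble library of IDRm at that temperature. The code was tested on simulated counts.

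The members, the 48 gene lists and the rule for naming genes were chosen with earlier results of these data known. Named genes are the 12 highest and 12 lowest called coding genes of at least 32 CPM without an overlapping gene, the 10 largest gains and losses in CPM, up to 4 called genes a list (any gene of lists up to 12), 6 each way of the strain difference, and a few fixed ones. Alternatives were other size factors, DESeq2 1.42.0, no filter, fewer libraries, a replicate block, each library left out, other promoter windows and shares over filtered genes. The wider promoter window and the higher minimum for fractions were chosen after seeing the data.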

Additional observations from a re-analysis of the deposited data

Results flagged for a closer look

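The strains differed in the effect of 40 against 30 °C, by the interaction test, in 12 genes, the 6 highest and 6 lowest called coding genes with a standard name, at least 32 CPM over the 8 libraries and no overlapping gene. The difference is IDRm minus WT on the log2 scale. It was higher in IDRm for HSP30 (3.18, changes of 10.17 in IDRm and 6.98 in WT), HSP26 (1.77, 8.94 and 7.17), SOL4 (1.75, 7.55 and 5.80), SUC2 (1.54, 1.51 and -0.04), HXT4 (1.5, 1.36 and -0.13) and ALD3 (1.43, 6.63 and 5.20). It was lower in IDRm for EAF7 (-1.26, 1.13 and 2.39), BRE5 (-1.25, -0.49 and 0.76), RRP7 (-1.23, -0.59 and 0.63), BSC5 (-1.15, 3.22 and 4.37), PXR1 (-1.13, 0.95 and 2.08) and LOC1 (-1.11, -1.25 and -0.14). RRP7, PXR1 and LOC1 act in ribosome assembly, whose genes took 2.02 and 2.97% of the counts in the 2 WT libraries at 30 °C. The part of that spread in these differences was not tested.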

How the results depend on the processing

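The count of 4288 genes called between 40 and 30 °C in IDRm stayed within 1.5-fold in each alternative: 4262 with median-of-ratios size factors, 4075 with DESeq2, 4295 without a filter, 4563 from the 4 libraries alone and 3816 to 3858 with 1 of the 4 left out. No called fold change of a named gene changed direction under these alternatives. The median of the mitochondrial ribosomal list, near 0, ran from -0.09 to 0.00. The strain difference was less steady. Its 100 calls became 177 with DESeq2 (102 higher, 75 lower), 43 from the 8 libraries alone (28 higher, 15 lower) and 16 to 739 with 1 library left out (13 to 301 higher, 2 to 438 lower), most of them without WT replicate 2 at 30 °C; fits with 1 library in a group assume that it varies like the others. Over 500 bases before the start the HSE was found in 8% and STRE in 68.5% of the promoters of genes higher by at least 8-fold, against 1.48% and 34.1% of all 6000 promoters.

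With the replicate number as a block, 4153 genes were called for heat and 96 for the strain difference (52 higher, 44 lower). The labels do not state that a replicate number marks the same culture across temperatures. Deviations of IDRm replicates at 30 and 40 °C correlated at -0.08, and those of the other pairs at -0.16 to 0.02. No shared effect of the number was thus seen, but such correlations cannot tell which libraries share a culture.

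Depth limits genes such as SPG4, MET28 and RPA12, with few counts in 1 group.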

Other observations

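Of 23 nuclear transport genes 12 fell and 4 rose (YRB1, KAP95, MTR2 and GSP2). GSP2, a Ran GTPase gene, had 130.2 and 94.7 CPM at 40 °C, against 22.4 and 29.8 CPM at 30 °C (log2 2.11 ± 0.18), while the importin gene PSE1 had 202 and 237 CPM at 40 °C, against 1078 and 952 CPM at 30 °C (-2.21 ± 0.13). Of 9 glycine cleavage and one-carbon genes 5 fell (FOL1, GCV2, MIS1, SHM1 and GCV1) and 1 rose (LPD1). GCV2, a subunit of glycine decarboxylase, had 105 and 115 CPM at 40 °C, against 466 and 549 CPM at 30 °C (-2.21 ± 0.14). Of 26 ergosterol genes 11 fell and 6 rose (3 rose without replicate 2 at 40 °C). Called lower were thus 42.3% of the ergosterol genes and called higher 23.1%, against 32.6% and 37.8% of all genes. ERG13, which makes HMG-CoA, changed by -1.43 ± 0.15, and UPC2, the sterol regulator, had 221 and 207 CPM at 40 °C, against 75.9 and 57.1 CPM at 30 °C (1.69 ± 0.13).

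Among 7 mating type markers 4 fell (STE6, STE2, MFA2 and BAR1, with MFA2 not called without replicate 2 of either temperature) and 1 rose. The gene that rose, STE3, which encodes the a-factor receptor of alpha cells, had 11.1 and 13.8 CPM at 40 °C, against 1.46 and 1.38 CPM at 30 °C (3.12 ± 0.26). STE2, the alpha-factor receptor of a cells, had 68.2 and 75.8 CPM at 40 °C, against 209.6 and 178 CPM at 30 °C (-1.43 ± 0.12). In WT, STE3 had 12.7 and 14.6 CPM at 40 °C, against 0.845 and 1.11 CPM at 30 °C. Both strains were thus higher for STE3 at 40 °C in each library.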
